A study of Solanum lycopersicum with 8 samples.

Results

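In tomato, 2 gibberellin (GA) 3-oxidase genes, GA3ox1 (Solyc06g066820.2) and GA3ox2 (Solyc03g119910.2), were followed over 8 RNA-seq libraries of young seedling leaves. They are 2 of the 34722 gene identifiers in the deposited count table and were picked by identifier, with no measured value in the rule. Whether tomato has further GA 3-oxidase genes was not checked. The identifiers place GA3ox1 on chromosome 6 and GA3ox2 on chromosome 3. The RefSeq tomato gene table has a GA3ox1 (synonym 3OH-1) on chromosome 6 and a 3OH-2 on chromosome 3, and gives both the synonym SlGA3ox1. That table carries none of the identifiers used here, so the match rests on name and chromosome for GA3ox1 and on the chromosome alone for GA3ox2, a name the table does not hold. Neither RefSeq gene overlaps another gene in it.

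GA 3-oxidases are dioxygenases that carry out the last step of GA activation: they hydroxylate inactive precursors to the forms that the GID1 receptors bind. Receptor-bound GA leads to the loss of DELLA proteins, the repressors of GA responses. In Arabidopsis, some but not all GA 3-oxidase transcripts are under negative feedback. Those fall when active GA is supplied and rise when GA is short and DELLA accumulates.

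The libraries came from 4 groups of 2. The cultivar M82 carries a working PROCERA gene, the DELLA gene of tomato, and pro∆GRAS (the mutant) is a procera mutant. All groups, controls included, had received paclobutrazol, a blocker of early GA synthesis, given once daily at 10 mg/l for 3 days, and 1 group of each genotype then received 100 µM GA3, an active GA, and was sampled 3 hours later. The labels give neither the age of the seedlings nor the number of plants behind a library, and libraries are named by the number their column carries. No table used here pairs the identifiers with names, so neither the PROCERA transcript nor leaf markers were checked under their names.

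Libraries held 14395465 to 18483028 counts. No 2 libraries of a group were copies, with a chi-square per degree of freedom of 35.1 to 81.7 between them. M82 library 3 without GA3 and M82 library 2 with GA3 stood apart: their 100 top genes held 45.5% and 50.3% of all counts, where those of the other 6 libraries held 31.4% to 41.3%. Levels below are CPM (read counts relative to library size) scaled with TMM factors, which correct the library total for such differences in composition.

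GA3ox2 was detected in every library and had its highest level in M82 without GA3. There it had 93 counts in library 1 and 81 in library 3, or 6.07 and 6.54 CPM. In M82 with GA3 it had 54 and 58 counts, or 2.98 and 4.07 CPM in libraries 1 and 2. Both M82 libraries with GA3 lay below both without, and below the lower 95% Poisson limits of those 2 libraries, 4.90 and 5.19 CPM. The Poisson interval of M82 library 2 with GA3, 3.09 to 5.26 CPM, still overlapped those of both libraries without GA3. That of library 1 with GA3, 2.24 to 3.89 CPM, did not. In the mutant without GA3 both libraries had 71 counts, or 3.68 and 3.97 CPM in libraries 1 and 3, within the range of M82 with GA3. In the mutant with GA3, library 1 had 112 counts and 5.31 CPM and library 3 had 68 counts and 3.62 CPM. These 2 libraries lay on either side of both mutant libraries without GA3, so the 2 mutant groups overlapped. Poisson limits cover counting error only. A lower level in a leaf may mean fewer cells with the transcript or less of it per cell, which cannot be told apart in bulk RNA.

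**Figure D1:**
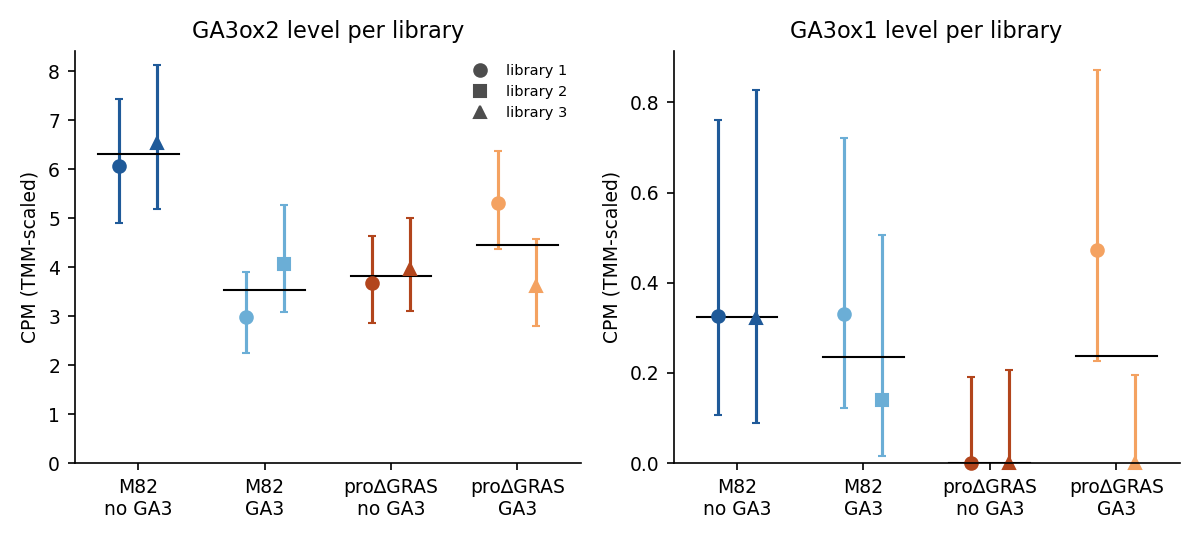
Level in CPM (TMM-scaled) of GA3ox2 (left) and GA3ox1 (right) in each library of the 4 groups; the axes differ in range. Points are libraries, with the symbol giving the library number, bars are 95% Poisson intervals of the count and black lines are group means. GA3ox2 was highest in the 2 M82 libraries without GA3, at 6.07 and 6.54 CPM, and GA3ox1 was at 0 in 3 of the 4 mutant libraries.

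The order of the group means for GA3ox2 was M82 without GA3 at 6.31 ± 0.330 CPM (SD, n = 2), the mutant with GA3 at 4.46 ± 1.19, the mutant without GA3 at 3.83 ± 0.211 and M82 with GA3 at 3.53 ± 0.768. The libraries of the last 3 groups overlapped from neighbour to neighbour, so their order was not larger than the spread. The M82 libraries without GA3 stood above all other 6, as they did for 3.93% of the 18340 genes tested. That separation depended on the scaling. It held with RLE factors, but with library totals as the only scaling mutant library 1 with GA3 was at 6.17 CPM, between the M82 libraries without GA3 at 6.33 and 5.63 CPM.

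**Figure D2:**
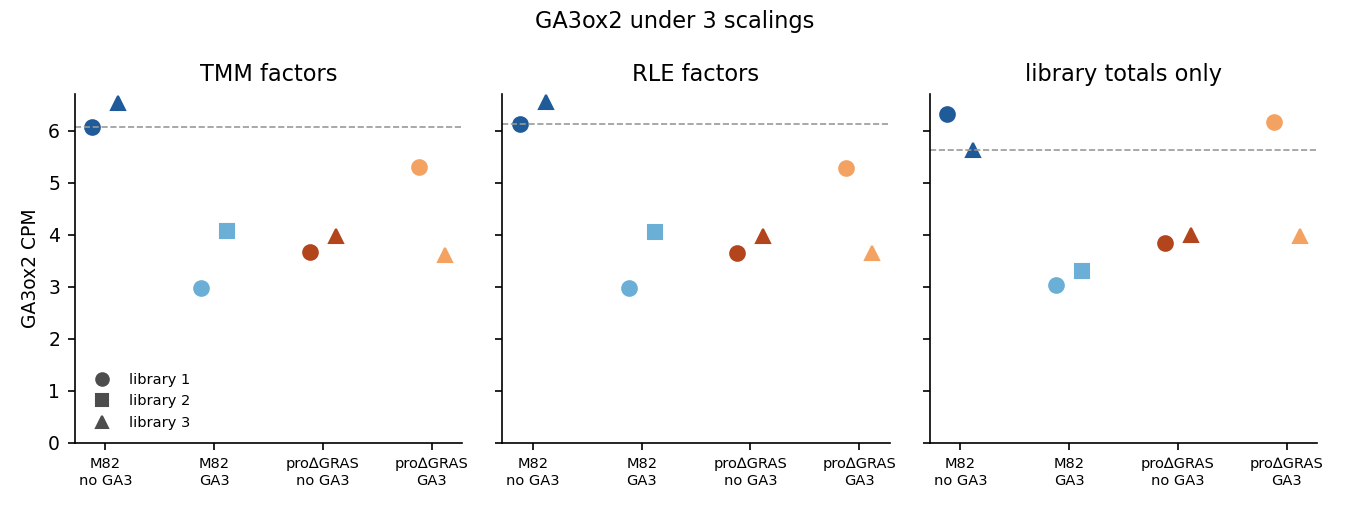
GA3ox2 level in CPM per library under TMM factors, RLE factors and library totals only. Points are libraries, and the dashed line is the lower of the 2 M82 libraries without GA3; 1 point from another group, mutant library 1 with GA3 at 6.17 CPM, lies above that line, and only under library totals.

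The first comparison asks whether the transcript responds within 3 hours when GA is restored in M82. The GA3ox2 level with GA3 was 0.558 times that without (95% interval 0.335 to 0.931), a log2 fold change of -0.84 (SE 0.329). This did not pass the test over all genes: the edgeR quasi-likelihood p was 0.0295 before and 0.615 after Benjamini-Hochberg adjustment, and the DESeq2 adjusted p was 0.604. By its p GA3ox2 stood at place 880 of 18340. An adjusted p under 0.05 was reached by 0.0164% of the genes tested and an unadjusted p under 0.05 by 7.62%. Both libraries with GA3 lay below both without for 16.6% of the genes tested, so such an order was common in these data.

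In the mutant, the same comparison gave a log2 fold change of 0.22 (SE 0.324, edgeR unadjusted p = 0.507, adjusted p = 1). The level with GA3 was 1.17 times that without, with a 95% interval of 0.706 to 1.93, which leaves room for a change of either sign. The value rested on mutant library 1 with GA3, and without that library it was -0.078. No gene passed the edgeR adjusted threshold in this comparison (0%), where 2.67% had an unadjusted p under 0.05 and 0.158% were called by DESeq2.

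Whether the 2 genotypes differed in their response to GA3 was tested as an interaction. For GA3ox2 the GA effect in the mutant exceeded that in M82 by 1.06 on the log2 scale (SE 0.462, 95% interval 0.03 to 2.10). The edgeR unadjusted p was 0.0449 and the adjusted p 0.994, so a difference between the genotypes was not established. Of the genes tested, 3.76% had an unadjusted p under 0.05 here and 0% passed with adjustment, against 0.109% with DESeq2.

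**Figure D3:**
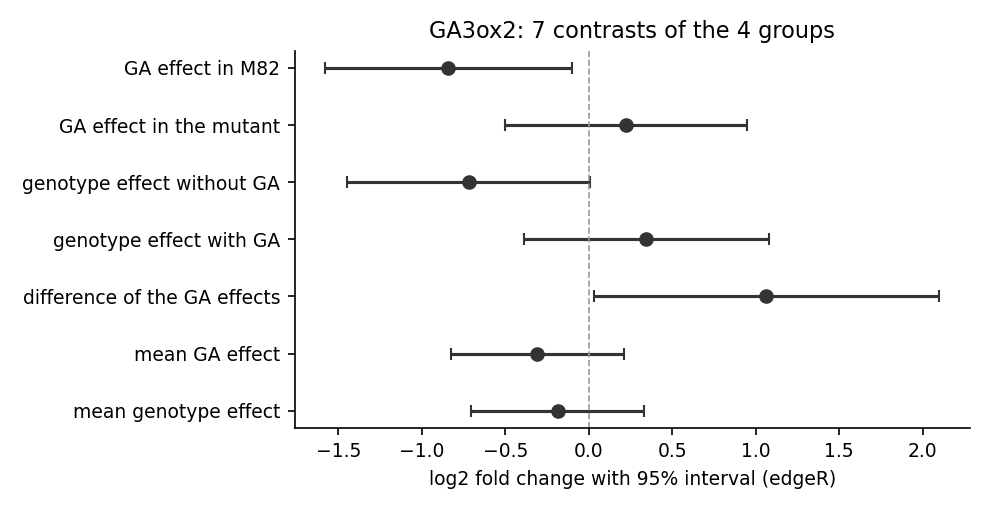
Log2 fold changes of GA3ox2 from edgeR (points) with 95% intervals (bars) for the 7 contrasts; the dashed line marks no difference. GA effects are with minus without GA3, genotype effects are mutant minus M82, and the difference is mutant minus M82. The intervals of the GA effect in M82 (-1.58 to -0.10) and of the difference of the GA effects (0.03 to 2.10) leave out 0, and neither passed adjustment over all genes.

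The genotype comparison without GA3 asks whether lasting loss of DELLA goes with a lower transcript level when GA synthesis is inhibited. The GA3ox2 level in the mutant was 0.607 times that in M82 (95% interval 0.366 to 1.01), a log2 fold change of -0.72 (SE 0.326, edgeR unadjusted p = 0.0526, adjusted p = 0.497). Both mutant libraries lay below both M82 libraries, as for 17.6% of the genes tested, and 0.393% of the genes passed the adjusted threshold. This comparison and the GA effect in M82 share the 2 M82 libraries without GA3, so the 2 values are not separate pieces of evidence. With GA3, the mutant stood at 1.27 times M82 (95% interval 0.764 to 2.11, log2 fold change 0.34, SE 0.328, edgeR adjusted p = 0.652), in a comparison in which 0.354% of the genes passed. Under library totals only, this value was 0.68 on the log2 scale, and over the left-out libraries it ran from 0.081 (without mutant library 1 with GA3) to 0.63.

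Averaged over the genotypes, the GA effect on GA3ox2 was -0.31 on the log2 scale (SE 0.231, edgeR adjusted p = 0.870), where 0% of the genes passed, 6.15% had an unadjusted p under 0.05 and DESeq2 called 0.496%. Averaged over the treatments, the genotype effect was -0.19 (SE 0.231, edgeR adjusted p = 0.697), where 3.05% passed. The second value was 0.035 with library totals only.

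GA3ox1 was near the limit of detection. In M82 it had 5 and 4 counts without GA3 (libraries 1 and 3) and 6 and 2 counts with GA3 (libraries 1 and 2). In the mutant it had no count in either library without GA3, and with GA3 it had 10 counts in library 1 and 0 in library 3. So all 10 mutant counts came from the library in which GA3ox2 was also at its highest mutant level. A count of 0 allows a level of up to 0.155, 0.168 and 0.160 CPM in mutant library 1 without GA3 and in libraries 3 without and with GA3 (3 counts).

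Summed over the 2 libraries of a group, GA3ox1 stood at 0.325 CPM in M82 without GA3 (95% Poisson interval 0.149 to 0.617) and at 0.247 CPM with GA3 (0.107 to 0.487). Each sum lies within the interval of the other, so no response to GA3 in M82 was detectable at this depth. The mutant sum was 0 without GA3, which allows up to 0.0807 CPM, and 0.251 CPM with GA3 (0.120 to 0.461). The lower Poisson limit of M82 without GA3 was 1.84 times a floor of 3 counts over the mutant group without GA3. By the same measure the mutant with GA3 was at 1.49 times the floor, which rests on mutant library 1 alone, since library 3 was at 0. That floor is smaller than the upper limit of the exact 95% interval of the 0 sum, 3.69 counts or 0.0992 CPM. Neither ratio is therefore a strict lower bound of the fold. Both ratios cover counting error only and leave out the spread between libraries.

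GA3ox1 did not pass the filter on low counts, so of the 2 genes only GA3ox2 entered the tests above. Fitted without the filter, over 23786 genes, GA3ox1 passed none of the 7 contrasts. The smallest of its edgeR unadjusted p-values was 0.0210, for the genotypes without GA3, with an adjusted p of 0.384. In that unfiltered comparison 1.42% of the genes passed. For the GA effect in the mutant the edgeR unadjusted p was 0.0320 and the adjusted p 1.

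Gene length cancels when the share of GA3ox1 among the reads of both genes is compared between libraries. GA3ox1 gave 9 of the 183 reads in M82 without GA3, or 4.92% (95% exact binomial interval 2.27% to 9.13%), and 8 of 120 with GA3, or 6.67% (2.92% to 12.7%). In the mutant without GA3 it gave 0 of 142 reads, which allows a share of up to 2.11% (3 counts of the total), or 2.56% by the exact interval. With GA3 it gave 10 of 190 reads, or 5.26% (2.55% to 9.47%), all in library 1. GA3ox2 thus held nearly all reads of the pair in all 8 libraries, with a share for GA3ox1 of at most 10.0% (M82 library 1 with GA3). A ratio of transcripts cannot be read from this, since the transcript lengths behind the counts are not given in the sources used here.

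The genes with the profile most like that of GA3ox2 were sought by the correlation of log2 CPM over the 8 libraries, among 16181 other genes whose mean reached 1 CPM. Solyc02g080510.1, on chromosome 2, came first (Pearson r = 0.949). It had 19.3 and 20.9 CPM in M82 without GA3 and 5.08 and 8.77 CPM with GA3. In the mutant it had 6.01 and 9.07 CPM without and 9.52 and 6.97 CPM with GA3. Like GA3ox2, it was highest in the 2 M82 libraries without GA3 and overlapped among the other groups. Solyc09g074100.2, on chromosome 9, came next (r = 0.931), with 11.0 and 11.5 CPM in M82 without GA3 and 6.36 to 9.90 CPM elsewhere. The median r over all genes compared was -0.0027 and the 99th percentile was 0.746; the 2 genes were picked as the top of this list, and the libraries share treatment and genotype, so the r values are a description. For GA3ox1 the same search gave Solyc04g079660.2 (r = 0.920) and Solyc08g076490.2 (r = 0.915), which with 0 to 10 counts per library for GA3ox1 is no finding.

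**Figure D4:**
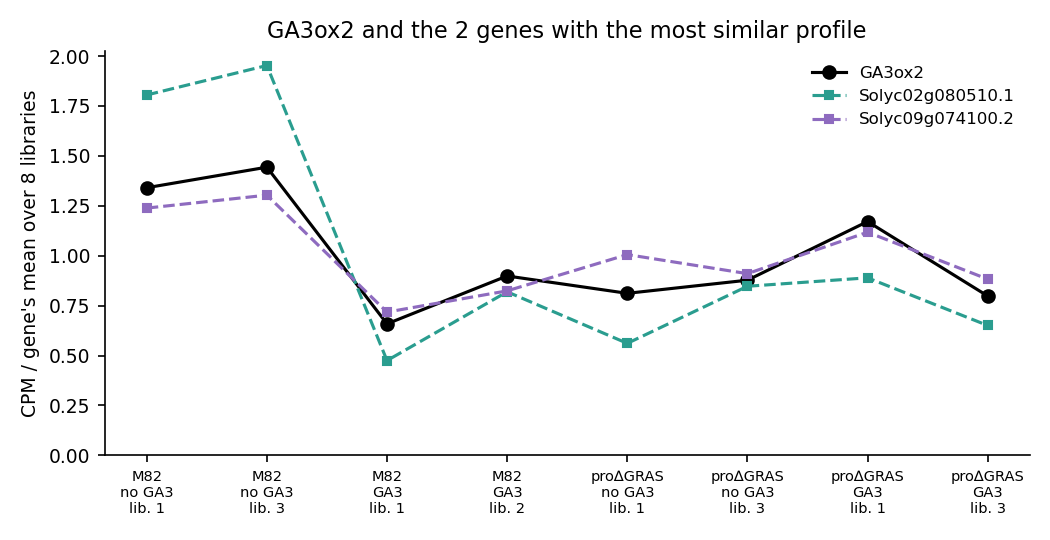
CPM of GA3ox2 and of the 2 genes with the highest Pearson correlation to it (r = 0.949 and 0.931), each divided by its own mean over the 8 libraries. All 3 were highest in the 2 M82 libraries without GA3, and the lines join libraries only to guide the eye.

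The wider GA pathway was described with a list of 20 further identifiers, drawn up from general knowledge of tomato. Earlier results of these data were known at that point, so the counts and medians below are a description and not independent support. It covers early GA synthesis, GA 20-oxidases and 2-oxidases, and GA perception and DELLA. The sources used here pair none of these identifiers with a name, so no single one is given a gene name. All 20 were in the table and 14 passed the filter. For the GA effect in M82 none was called by edgeR, which called 0.0164% of all genes. Of the 14, 5 had higher and 9 lower levels with GA3, where 49.7% of all genes were higher. The list median of the log2 fold change was -0.62, against -0.0026 over all genes. The value of GA3ox2, -0.84, lay below that median, but the list mixes classes of gene and its median is no yardstick for a single gene. The lowest values in the list were far below that of GA3ox2: -3.63 for Solyc06g035530.2 (SE 0.674) and -3.35 for Solyc03g006880.2 (SE 0.603). Their edgeR adjusted p-values were 0.152 and 0.147. DESeq2, which called 0.589% of all genes here, called 3 of the 14 as lower and 0 as higher. In the mutant 6 had higher and 8 lower levels with GA3, where 48.6% of all genes were higher. The list median there was -0.14 against -0.01 over all genes. Neither tool called any of the 14, where edgeR called 0% of all genes and DESeq2 0.158%.

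Without GA3, edgeR called 2 of the 14 as lower in the mutant and 0 as higher, where it called 0.393% of all genes. DESeq2, which called 2.25% of all genes, called 3 as lower and 2 as higher. The list median was -0.30 against -0.01 over all genes. Solyc03g006880.2 had 68.4 and 79.3 CPM in M82 and 0.570 and 2.52 CPM in the mutant, -5.59 on the log2 scale (SE 0.689; adjusted p = 0.0236 from edgeR). Solyc06g035530.2 had 5.09 and 4.12 CPM in M82 and 0.259 and 0.112 CPM in the mutant, -4.57 on the log2 scale (SE 0.721; adjusted p = 0.0357 from edgeR). Both stood much further apart between the genotypes than GA3ox2, whose log2 fold change was -0.72. From DESeq2 the adjusted p was 1.9e-18 for Solyc03g006880.2 and 1.4e-05 for Solyc06g035530.2. The edgeR call of Solyc03g006880.2 was lost without M82 library 3 or mutant library 1 or 3, all without GA3. Each of these fits leaves 1 library in a group compared. Its log2 fold change ran from -6.99 to -4.85 over the left-out libraries. The edgeR call of Solyc06g035530.2 was lost without any 1 of the 6 libraries other than the mutant libraries with GA3. Its log2 fold change ran from -5.26 to -4.11 over the left-out libraries.

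With GA3, edgeR called 1 of the 14 as lower in the mutant and 0 as higher, where it called 0.354% of all genes. DESeq2, which called 3.01% of all genes, called 2 as lower and 2 as higher. The list median was 0.03 against 0.01 over all genes. The identifier called by edgeR, Solyc11g011260.1, is in the perception and DELLA class of the list. Whether it is the gene mutated in pro∆GRAS was not checked, so its level is not read as a pathway response. Solyc11g011260.1 had 192 and 188 CPM in M82 and 61.1 and 60.6 CPM in the mutant, -1.64 on the log2 scale (SE 0.235; adjusted p = 0.0323 from edgeR). Its edgeR call held without either M82 library without GA3 and was lost without any 1 of the other 6 libraries. The log2 fold change ran from -1.65 to -1.58 over the left-out libraries, and the DESeq2 adjusted p with all libraries was 1.3e-07. The difference of the GA effects was called for none of the 14 by edgeR (0% of all genes) and for 1 by DESeq2 (0.109%). Averaged over the treatments, edgeR called 2 of the 14 as higher in the mutant and 3 as lower, where it called 3.05% of all genes. DESeq2, which called 1275 of the 18340 genes tested, called 4 as higher and 3 as lower. The 2 higher from edgeR were Solyc07g056670.2 (log2 fold change 2.36, SE 0.435, edgeR adjusted p = 0.0238) and Solyc07g061720.2 (1.44, SE 0.325, edgeR adjusted p = 0.0473). The 3 lower were those called in the single comparisons above. Among them is Solyc11g011260.1, whose level is not read as a pathway response for the reason given above, and which stays in all counts and medians of the list.

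**Figure D5:**
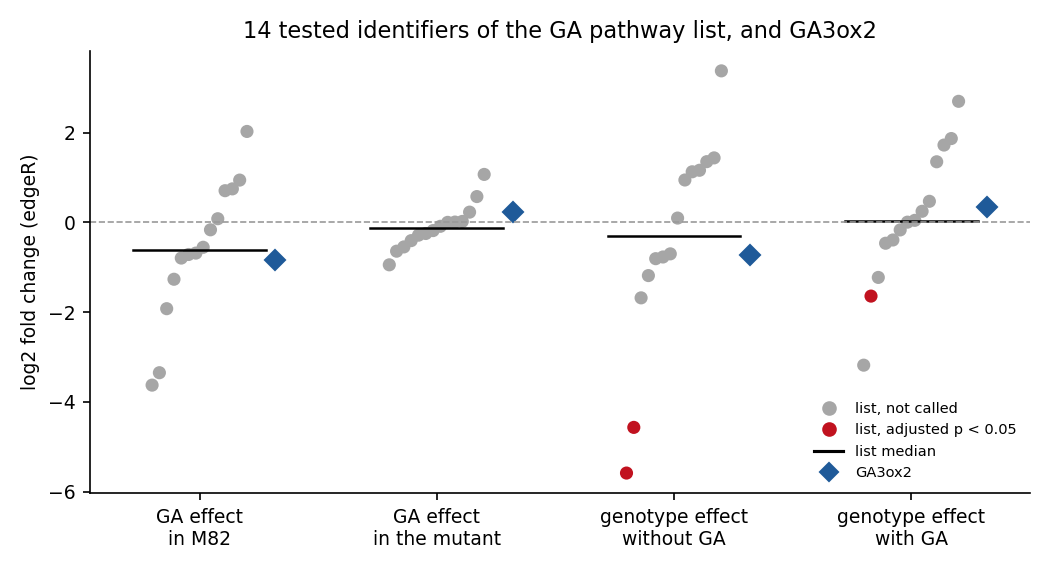
Log2 fold changes from edgeR of the 14 tested identifiers of the GA pathway list (circles, red where the adjusted p was under 0.05), their median (black line) and GA3ox2 (blue diamond) in the 4 comparisons. In M82 the list median of the GA effect was -0.62 and GA3ox2 was at -0.84; in the mutant they were at -0.14 and 0.22.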

How the data were processed

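Raw counts of reads for each gene, as deposited, were analysed; per the file headers a second block holds normalized values, and it was not used. The submitters' processing notes name DESeq2 1.6.3, HTSeq 0.6.1p1 and TopHat2 2.0.10. The genome build, the annotation and how reads were counted are not given in the sources used here. The TruSeq v2 kit named in the labels' protocols does not mark strand, so antisense reads would be counted with a gene. Of the 8 columns, 5 matched a title and 3 carry a number found in no title and show their group only.

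Genes were filtered with filterByExpr (minimum count 10), which left 18340 genes and removed GA3ox1, and tested with edgeR 4.0.16 (TMM, robust quasi-likelihood fit, 4 groups, no block) in R 4.3.3. Adjusted p-values are Benjamini-Hochberg over all genes tested, with a threshold of 0.05. The model has 4 residual degrees of freedom, and the edgeR p-values and intervals also use degrees of freedom that the fit borrows from other genes. GA3ox1 was fitted without the filter. SE is the log2 fold change over the square root of F, and intervals are 95%. DESeq2 1.42.0 was run without independent filtering. Log2 CPM has a prior count of 2. The procedure was run on simulated counts to check the fold changes it returns, with no requirement on the share of changes called.

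Named genes were the 2 members and, for each, the 2 genes of highest correlation with a mean of at least 1 CPM; of the pathway list, no more than 2 identifiers in each direction were printed for a comparison. The members, the pathway list and the tests were chosen with earlier results of these data known. The series' text calls the replicates biological but does not say how plants were pooled, and p-values reflect only how these libraries varied.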

Additional observations from a re-analysis of the deposited data

How the results depend on the processing

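Scaling (RLE, or library totals only), the filter (none, or 5 CPM in 2 libraries), DESeq2, a fit restricted to the groups compared, a replicate block and leaving out each library gave 109 further values for GA3ox2. None was called (smallest adjusted p 0.334) and 107 kept their sign. The exceptions were the mean genotype effect with library totals only (0.035) and the GA effect in the mutant, which ran from -0.078 to 0.47 over the left-out libraries. The GA effect in M82 ran from -1.07 to -0.66 over them, the genotype effect without GA3 from -0.77 to -0.65 and the difference of the GA effects from 0.79 to 1.34. A library left alone in its group was assumed to vary like the others. The cause of the changes in sign was not tested.

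The same alternatives without the filter gave 94 values for GA3ox1, none called (smallest adjusted p 0.170), and 6 changed sign. The genotype effect with GA3, 0.01, was -0.078 and -0.25 under the 2 replicate blocks and ran from -5.04 to 0.96 over the left-out libraries. The GA effect in M82 ran from -1.17 to 0.052 and the mean GA effect from -0.21 to 2.80. Without mutant library 1 with GA3, both mutant groups were at 0 and their comparison had no value. With 0 to 10 counts per library, depth limits all values of this gene.

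The libraries were not treated as paired. Deviations of number 1 from the other library correlated across genes at 0.42 between the M82 groups, which leaves room for structure shared by these groups. The correlations were 0.18 and 0.14 between the M82 groups and the mutant with GA3, and -0.02 to 0.05 in the other 3 pairs of groups. With the number as a replicate block the GA effect in M82 for GA3ox2 was -1.13. Number 2 occurs only in M82 library 2 with GA3, so that block sets this library apart, much as leaving it out does (-1.07). With number 1 against the other the effect was -0.84 (edgeR adjusted p = 0.478). Neither gene was called under either block.

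For the GA effect in M82 the count of called genes was 3. It was 0 to 22 over left-out libraries, 0 and 33 under the blocks by number and of number 1, 92 without the filter and 108 with DESeq2. In this order the genotype effect without GA3 gave 72, 1 to 180, 59 and 166, 338 and 412, that with GA3 65, 2 to 243, 2 and 200, 438 and 552, and the mean genotype effect 559, 119 to 1126, 229 and 921, 1141 and 1275. Without the filter and with DESeq2, the GA effect in the mutant gave 9 and 29, the interaction 14 and 20 and the mean GA effect 65 and 91, each against 0.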
